A study of Homo sapiens with 12 samples.

Results

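The genes described here are those of 3 lipoprotein receptors, VLDLR, LRP8 and SCARB1, and of the receptor-like LDLRAD3. The others are those of 3 proteins that move sterols out of cells or between lipoproteins, CETP, ABCG1 and ABCA1. The 7 genes are among the 19775 with a probe set of their own on the arrays, and 19 probe sets are annotated to them. The set was selected on values measured on these arrays, with earlier results known: a higher signal of VLDLR, LDLRAD3 and CETP, and a lower signal of ABCG1 in Z-138, with doxycycline-induced knockdown of MAP3K14. The doxycycline changes of the knockdown cultures are therefore given as a description with no test, whereas the response of the control cultures and the difference between the lines were tested. The choice may have used the control cultures as the reference, so the test of their response is not independent of it.

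Expression was measured on 12 Affymetrix arrays from 2 established mantle cell lymphoma lines, a B cell tumour, which differ in the gene that the labels give as altered: a nonsense change of TRAF2 in Z-138 and a deletion of TRAF3 in Maver-1. Every culture carried a doxycycline-inducible hairpin under puromycin selection in medium with fetal bovine serum, which itself supplies lipoproteins. The hairpins were NIKsh#1 and NIKsh#2, both against MAP3K14, the gene of the NF-kB inducing kinase NIK, or a non-targeting control (NTC). Each of the 6 cultures was kept for 7 days with 100 ng/ml doxycycline or without it, so that the 8 groups held 2 arrays (NIKsh, 1 per hairpin) or 1 array (NTC) in each line. Nothing in the labels says whether a culture was 1 clone or a pool.

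Lipoproteins carry cholesterol and triglycerides in the blood and in serum. Receptors of the LDL receptor family take them up by endocytosis through cysteine-rich ligand-binding repeats. SCARB1 instead draws cholesteryl esters out of HDL without taking in the particle. Cells shed surplus cholesterol through ABCA1, which loads lipid-poor apolipoprotein A-I, and ABCG1, which loads HDL, and CETP exchanges cholesteryl esters for triglycerides between particles. In human cells ABCA1, ABCG1 and CETP are known targets of the oxysterol-sensing nuclear receptors LXR, which act as partners of RXR.

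The promoters of VLDLR, LDLRAD3 and CETP are shown because these genes had a higher signal with doxycycline in all 4 NIKsh cultures. RefSeq promoter windows, 250 bases before to 50 bases after the annotated start on GRCh38.p14, matched 5 of the 7 genes. The windows printed lie on the plus strand at chr9:2621537-2621836 for VLDLR, chr11:35943812-35944111 for LDLRAD3 and chr16:56961700-56961999 for CETP, and capitals mark the GC box GGGCGG on either strand.
VLDLR: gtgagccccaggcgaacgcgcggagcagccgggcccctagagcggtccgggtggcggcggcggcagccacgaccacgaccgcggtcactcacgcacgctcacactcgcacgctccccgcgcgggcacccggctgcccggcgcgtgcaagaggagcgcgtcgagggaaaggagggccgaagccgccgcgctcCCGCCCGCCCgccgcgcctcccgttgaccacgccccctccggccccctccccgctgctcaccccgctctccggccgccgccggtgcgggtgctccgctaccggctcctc
LDLRAD3: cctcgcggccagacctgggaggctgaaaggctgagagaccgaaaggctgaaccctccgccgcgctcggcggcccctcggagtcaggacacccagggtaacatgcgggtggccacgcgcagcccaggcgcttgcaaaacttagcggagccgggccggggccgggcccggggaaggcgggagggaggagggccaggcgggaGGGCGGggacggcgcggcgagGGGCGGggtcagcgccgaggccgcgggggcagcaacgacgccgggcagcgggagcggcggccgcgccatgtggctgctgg
CETP: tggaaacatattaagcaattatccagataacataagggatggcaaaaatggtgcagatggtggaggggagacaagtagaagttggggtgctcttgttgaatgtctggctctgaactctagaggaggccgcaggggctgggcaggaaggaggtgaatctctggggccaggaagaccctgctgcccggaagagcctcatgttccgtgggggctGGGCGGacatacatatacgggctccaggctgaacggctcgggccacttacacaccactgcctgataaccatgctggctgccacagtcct
The window of VLDLR holds 2 GC boxes that overlap, that of LDLRAD3 holds 2 and that of CETP holds 1, and 45% of all 35116 promoter windows hold at least 1. G and C made up 79% of the bases of the VLDLR window, 76.7% of that of LDLRAD3 and 55.3% of that of CETP, against a median of 58.7% over all windows. Both strands were also searched for an NF-kB-like motif, GGGNNTTNCC, which 5.68% of all windows hold, and for an LXR-like direct repeat, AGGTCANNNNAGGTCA, which 0.0199% hold, and neither spelling was found in the 5 windows. The E-box CACGTG (7.26% of windows) and TATAAA (11.5% of windows) were each found once in the ABCA1 window and in none of the other 4. A match or its absence describes only these letters in these windows.

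**Figure D1:**
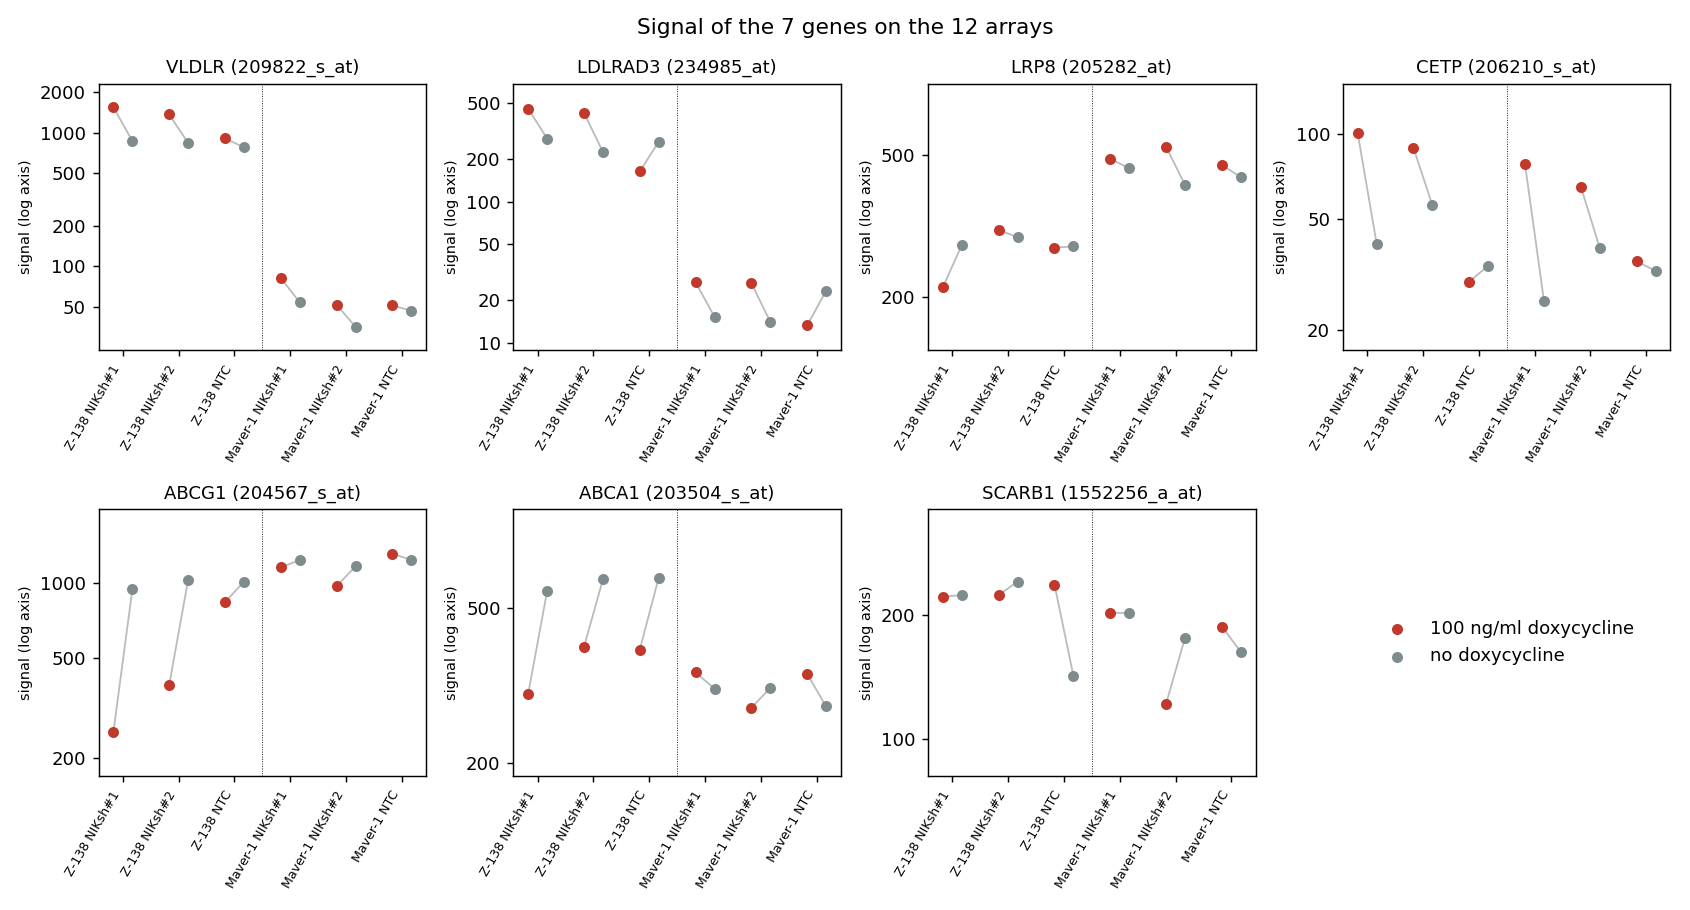
Signal of each of the 7 genes on the 12 arrays, on log axes that differ between panels. Each line joins the doxycycline array (red, left) and the untreated array (grey, right) of a culture, with the Z-138 cultures left of the dotted line and the Maver-1 cultures right of it. VLDLR, LDLRAD3 and CETP are higher with doxycycline in the 4 NIKsh cultures, and ABCG1 is lower in the Z-138 NIKsh cultures, at 253.9 and 391.2.

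Signals are on the authors' linear scale, on which the median of all probe sets lay between 10.6 and 14.1 per array. Changes are differences of log2(signal + 3), a scale on which the fold of a dim gene comes out too small. All 7 genes were above the filter on mean signal, 12.55, which 11548 genes passed. Signals of different genes come from different probes and are not set against each other. In such bulk RNA, fewer cells that express a gene and less RNA per cell cannot be told apart.

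The target of the hairpins checks the labels. MAP3K14 had a signal of 33.3 and 49.2 with doxycycline in Z-138 NIKsh#1 and NIKsh#2, against 55.2 and 52.0 without it, and of 63.4 and 55.7 in Maver-1 NIKsh#1 and NIKsh#2, against 86.9 and 79.3. In NTC it was 55.4 in Z-138 and 132.7 in Maver-1 with doxycycline, against 46.4 and 77.2 without it. It was lower with doxycycline in all 4 NIKsh cultures, by little in Z-138 NIKsh#2, and did not pass in limma (-0.42 ± 0.18, SE, adjusted p = 0.529). The ACTB ratio, 3' over 5' signal, which reads how complete the amplified RNA is, was 4.62 to 6.34 with doxycycline in the 3 Z-138 cultures, against 2.33 to 2.92 without it, and 3.80 to 4.43 with doxycycline in the 3 Maver-1 cultures, against 3.66 to 6.88. Of the B cell and mantle cell lymphoma markers, 6 of 6 measured genes passed the filter, with a summed signal of 8825 to 10904 on the NIKsh arrays with doxycycline, against 6518 to 10100 on the other arrays. Of 9 monocyte and macrophage markers 2 passed, LYZ and ITGAM, while CD14 and CSF1R did not, and the sum of all 9 was 37.5 to 72.1 on the NIKsh arrays with doxycycline, against 33.6 to 65.9. Of 8 T and NK cell markers 2 passed, among them CD3G, while CD3D and CD3E did not, and the mean of all 8 was 3.14 to 17.3 on the NIKsh arrays with doxycycline, against 2.75 to 27.3. Of 5 hepatocyte markers 0 passed, with a sum of 8.9 to 24.4 on the NIKsh arrays with doxycycline against 13.9 to 27.2. What part these levels have in the results was not tested.

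VLDLR, a receptor for triglyceride-rich particles and for reelin (chr9:2621787-2660056), was read by a single probe set. In Z-138 its signal with doxycycline was 1544.9 in NIKsh#1, 1363.6 in NIKsh#2 and 903.6 in NTC, against 863.1, 834.6 and 775.5 without it. In Maver-1 it was 82.1, 51.7 and 51.3 with doxycycline in NIKsh#1, NIKsh#2 and NTC, against 53.9, 35.5 and 46.6 without it. The 2 Z-138 NIKsh arrays with doxycycline were the highest of the 12, and the other 4 Z-138 arrays lay close together. Every Z-138 array was far above every Maver-1 array, and in Maver-1 the NIKsh#2 array with doxycycline stood within the range of the untreated arrays of its line. The change was 0.66 ± 0.15 on the log2 scale in the NIKsh cultures (SD, n = 4), from 0.51 in Maver-1 NIKsh#2 to 0.84 in Z-138 NIKsh#1, and 0.22 and 0.13 in Z-138 and Maver-1 NTC. All 6 cultures were thus higher with doxycycline, the NTC cultures by less than any NIKsh culture.

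LDLRAD3, a small membrane protein with LDL receptor class A repeats (chr11:35944062-36232136), was also read by a single probe set. In Z-138 its signal with doxycycline was 455.5 in NIKsh#1, 424.3 in NIKsh#2 and 163.3 in NTC, against 279.2, 225 and 265 without it. In Maver-1 it was 26.9, 26.5 and 13.3 with doxycycline, against 15.3, 14.1 and 23.4 in the same order without it. The Maver-1 signals lie at or little above the array medians, so that a small absolute change makes a large ratio there. The change was 0.78 ± 0.10 in the NIKsh cultures (SD, n = 4), with all 4 values between 0.70 and 0.91, and -0.69 and -0.70 in Z-138 and Maver-1 NTC. LDLRAD3 was the only one of the 7 genes whose NIKsh values all had one sign and whose NTC values both had the other. The choice of the gene used the NIKsh values, and the share of all genes with this pattern was not counted. Nothing is therefore read from these signs. In both lines the NTC array with doxycycline was the lowest array of its line and the 2 NIKsh arrays with doxycycline were the highest.

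CETP, the plasma transfer protein that the liver and other tissues secrete (chr16:56961950-56983845), was read by a single probe set at a modest signal. In Z-138 it was 101.4, 89.6 and 29.7 with doxycycline in NIKsh#1, NIKsh#2 and NTC, against 40.7, 55.8 and 33.9 without it. In Maver-1 it was 78.2, 65.1 and 35.1 with doxycycline, against 25.3, 39.2 and 32.5 without it. The 4 NIKsh arrays with doxycycline were the 4 highest of all 12, in both lines above every untreated and NTC array. The change was 1.03 ± 0.43 in the NIKsh cultures (SD, n = 4) and -0.17 and 0.10 in Z-138 and Maver-1 NTC. By hairpin it was 1.26 and 1.52 with NIKsh#1, against 0.66 and 0.69 with NIKsh#2, in Z-138 and Maver-1, so that the hairpins differed more than the lines. VLDLR also had its larger value with NIKsh#1 in both lines, though by less, and LDLRAD3 with NIKsh#2 in both.

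**Figure D2:**
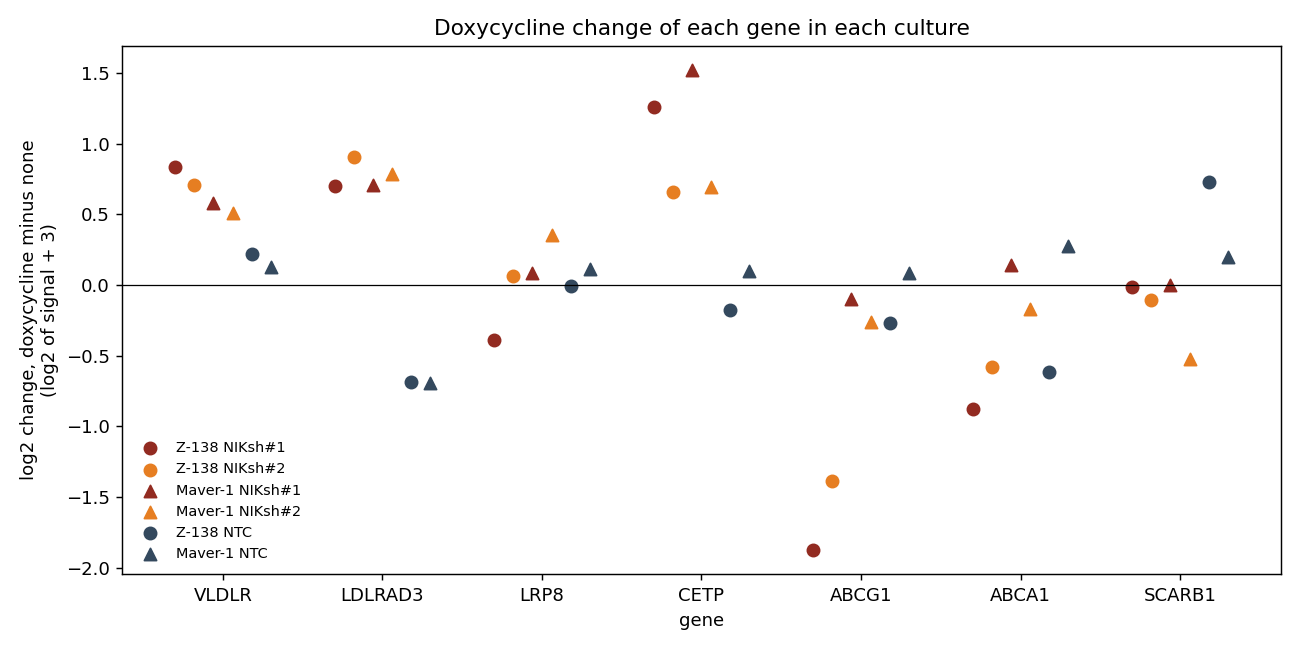
Log2 change with doxycycline of each gene in each culture, on log2(signal + 3), with circles for Z-138 and triangles for Maver-1. Red and orange mark the NIKsh#1 and NIKsh#2 cultures and dark blue, to the right within each gene, the NTC cultures. VLDLR, LDLRAD3 and CETP have all 4 NIKsh values above both NTC values, and ABCG1 reaches -1.88 and -1.38 in Z-138 NIKsh.

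For these 3 genes all 4 NIKsh changes lay above both NTC changes, a pattern that 7.12% of all genes tested showed. It is one that the choice of the genes used, and nothing is read from it. In the fit over all genes 0.0433% of genes were called in the 4 NIKsh cultures (5 of 11548, with 1037 at an unadjusted p under 0.05), and as the choice used that contrast, no test of the 7 genes is read from it. In rank by mean NIKsh change, CETP was at place 33, LDLRAD3 at 101 and VLDLR at 173 from the highest of 11548 genes.

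LRP8, the second reelin receptor and the closest relative of VLDLR (chr1:53242364-53328070), was in contrast without a common direction. The brightest of its 3 probe sets had a signal of 213.2, 307.5 and 275 with doxycycline in Z-138 NIKsh#1, NIKsh#2 and NTC, against 279.8, 294.3 and 277 without it. In Maver-1 it was 486.5, 525.6 and 467.6 with doxycycline, against 457.5, 411.1 and 432.1 without it. The change was 0.03 ± 0.31 in the NIKsh cultures (SD, n = 4), from -0.39 in Z-138 NIKsh#1 to 0.35 in Maver-1 NIKsh#2. The 2 other probe sets differed from it in Z-138 NIKsh#1, at 0.17 for the dimmest and 0.35 for the second brightest. For the second brightest the Z-138 NIKsh#2 value was 0.56 and the Z-138 NTC value 0.45, so that all 3 Z-138 cultures were higher with doxycycline.

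SCARB1, the HDL receptor (chr12:124776856-124863864), had NIKsh values near or below 0. The brightest of its 5 probe sets read 222.2, 224.4 and 237.8 with doxycycline in Z-138 NIKsh#1, NIKsh#2 and NTC, against 224.2, 241.8 and 142.4 without it. In Maver-1 it read 203, 121.8 and 187.8 with doxycycline, against 202.8, 176.7 and 163 without it. The change was -0.16 ± 0.25 in the NIKsh cultures (SD, n = 4), most of it from Maver-1 NIKsh#2 at -0.53, and 0.73 and 0.20 in Z-138 and Maver-1 NTC. The untreated Z-138 NTC array was the lowest of the 6 Z-138 arrays, which enters the NTC value. The next brightest probe set gave NTC values of 0.24 and 0.21 and NIKsh values between -0.20 and 0.02. The 3 dimmer ones gave NIKsh values from -1.32 to 1.14. SCARB1 was the 1 gene of the 7 with all 4 NIKsh changes below both NTC changes, a pattern that 6.45% of all genes showed.

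ABCG1, the exporter that loads HDL (chr21:42199689-42297244), was far above the array median in every untreated culture and, by its brightest probe set, much lower with doxycycline in the NIKsh cultures of Z-138. The brightest of its 4 probe sets read 253.9, 391.2 and 835.3 with doxycycline in Z-138 NIKsh#1, NIKsh#2 and NTC, against 939.5, 1026.2 and 1008 without it. In Maver-1 it read 1148.7, 967.6 and 1304.2 with doxycycline, against 1229.6, 1160.8 and 1228.6 without it. The 2 Z-138 NIKsh arrays with doxycycline were the lowest of the 12, and the lowest of the other 10 was Z-138 NTC with doxycycline. The change was -1.88 in Z-138 NIKsh#1 and -1.38 in Z-138 NIKsh#2, and -0.10 and -0.26 in Maver-1 NIKsh#1 and NIKsh#2. The NTC culture of Z-138 had -0.27 and that of Maver-1 had 0.09. Both Z-138 NIKsh values lay below the other 4, a pattern that 7.6% of all genes showed and that the choice of the gene used. In terms of signal the mean change left 0.323 of the untreated level in Z-138 NIKsh and 0.883 in Maver-1 NIKsh, on the log2(signal + 3) scale. The change of Z-138 NIKsh minus that of Maver-1 NIKsh was -1.45. In that comparison 0.121% of all genes passed in limma, 0.052% as higher and 0.0693% as lower, and as the choice of ABCG1 used it, no test is read from it. The same difference was -0.71 for ABCA1, -0.38 for LRP8, -0.15 for CETP, 0.06 for LDLRAD3, 0.20 for SCARB1 and 0.23 for VLDLR.

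The 3 other ABCG1 probe sets gave the same direction in Z-138 NIKsh. For the second brightest the change was -1.31 and -2.02 in Z-138 NIKsh#1 and NIKsh#2, against 0.19 in Z-138 NTC. For the third it was -1.83 and -1.99, against 0.18. For the dimmest it was -2.08 and -0.39, against -0.50, so that NIKsh#2 did not go beyond NTC with this probe set. In Maver-1 NIKsh the 4 probe sets lay between -0.84 and 0.13, with 7 of the 8 values below 0, and in Maver-1 NTC between -0.04 and 0.60. The ACTB ratio was higher with doxycycline in all 3 Z-138 cultures, at 4.62, 5.09 and 6.34 in NIKsh#1, NIKsh#2 and NTC. The same ratio of GAPDH was 1.36, 1.83 and 2.00 with doxycycline in that order, against 1.30, 1.15 and 1.17 without it. What part RNA quality has in the ABCG1 changes was not tested.

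**Figure D3:**
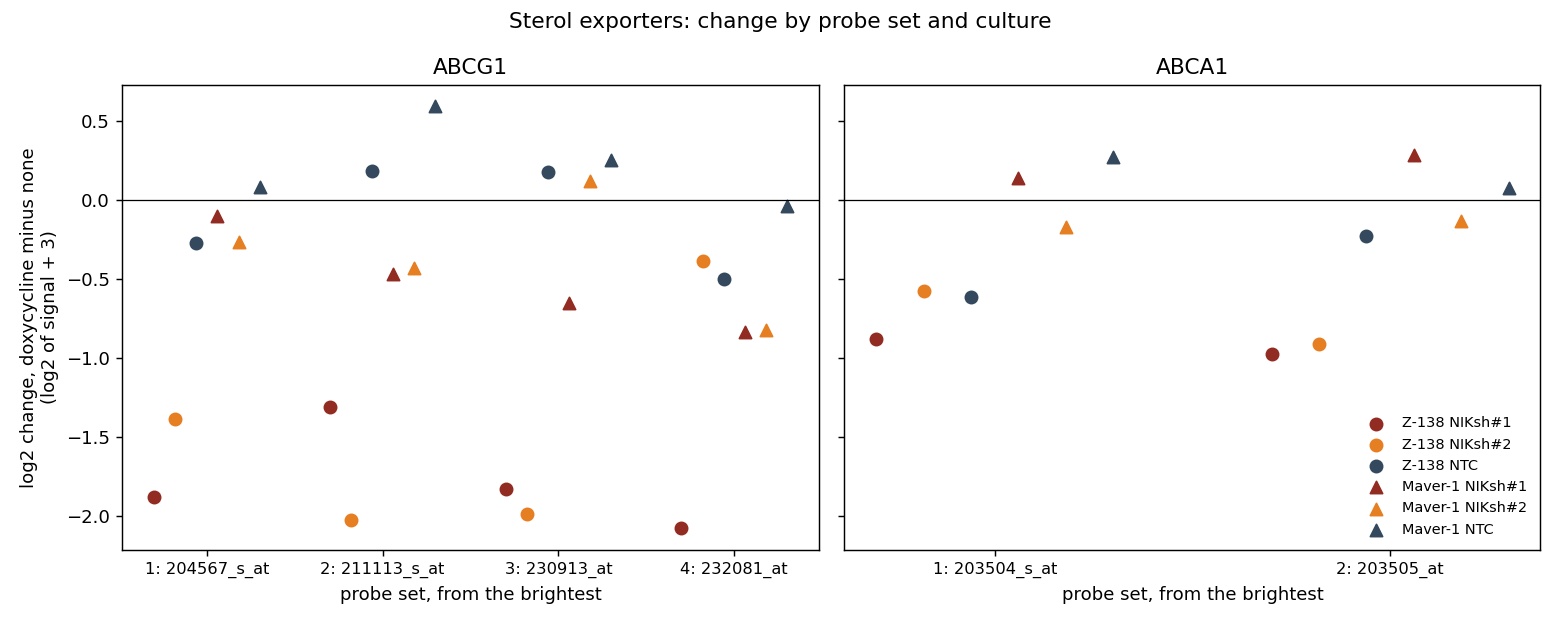
Log2 change with doxycycline of the 4 ABCG1 probe sets and the 2 brighter ABCA1 probe sets, by culture, numbered from the brightest, with circles for Z-138 and triangles for Maver-1, red and orange for NIKsh and dark blue for NTC. The Z-138 NIKsh values of ABCG1 reach from -2.08 to -0.39, and for the brightest ABCA1 probe set the Z-138 NTC value, -0.61, lies between the 2 Z-138 NIKsh values.

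ABCA1, which exports cholesterol to lipid-poor apolipoprotein A-I (chr9:104781006-104928155), was lower with doxycycline in all 3 Z-138 cultures, NTC included. The brightest of its 4 probe sets read 300.8, 397.5 and 391.3 with doxycycline in Z-138 NIKsh#1, NIKsh#2 and NTC, against 554.3, 594.2 and 600 without it. In Maver-1 it read 342.1, 277.3 and 339.2 with doxycycline, against 310.5, 312.1 and 279.4 without it. The change was -0.88, -0.58 and -0.61 in Z-138 NIKsh#1, NIKsh#2 and NTC, and 0.14, -0.17 and 0.28 in Maver-1. The Z-138 arrays with and without doxycycline did not overlap, whereas the Maver-1 arrays did. The share of all genes with this pattern was not counted, and nothing particular to ABCA1 is read from it. With the second brightest the Z-138 NIKsh values, -0.97 and -0.91, lay further from the NTC value, -0.22. The ACTB ratio was higher with doxycycline in the same 3 cultures, at 4.62, 5.09 and 6.34 in NIKsh#1, NIKsh#2 and NTC, against 2.86, 2.92 and 2.33 without it. Its part in the ABCA1 changes was not tested. The remaining 2 probe sets had mean signals of 3.65 and 4.57 and gave values of either sign.

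The NTC cultures asked how the 7 genes respond to doxycycline and hairpin induction without the MAP3K14 hairpins. As the choice of the genes may have set the NIKsh changes against these NTC changes, the NTC values are not independent of it. None of the 7 (0) passed in limma, with adjusted p between 0.895 and 0.981, and 0% of all genes did (387 of 11548 at an unadjusted p under 0.05). The largest value was that of LDLRAD3, -0.69 ± 0.22 (SE, limma, adjusted p = 0.895), lower in 2 of 2 cultures. SCARB1 stood at 0.46 ± 0.22 and VLDLR at 0.18 ± 0.18, both higher in 2 of 2 cultures, although with averaged probe sets SCARB1 was at -0.17. With 2 NTC cultures, whose spread was estimated together with that of the NIKsh cultures, the intervals are wide.

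The lines were then compared before induction, a comparison that the choice of the genes did not use. Of the 7 genes 3 were higher and 2 were lower in untreated Z-138 than in untreated Maver-1 (limma, adjusted p under 0.05), where 25.5% and 34.8% of all genes were. As 60.2% of all genes passed, the count of 5 is near the share of all genes, and nothing particular to the 7 is read from it. VLDLR had an untreated signal of 824 ± 44.7 in Z-138, against 45.3 ± 9.27 in Maver-1 (SD, n = 3 each), an 18.2-fold ratio of the means and a log2 difference of 4.11 ± 0.15 (SE, limma, adjusted p = 1.1e-10). LDLRAD3 had 256 ± 28.1 in Z-138, against 17.6 ± 5.06 in Maver-1 (SD, n = 3 each), with a difference of 3.68 ± 0.19 (SE, limma, adjusted p = 3.32e-09). As its Maver-1 level is close to the array medians and detection calls were not used, the size of that difference is uncertain, while VLDLR stood at place 85 from the highest of 11548 genes. The untreated ACTB ratio also differed, at 2.33 to 2.92 in Z-138 against 3.66 to 6.88 in Maver-1, and its part in the differences between the lines was not tested.

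ABCA1 was higher in Z-138, at 583 ± 24.9, than in Maver-1, at 301 ± 18.4 (SD, n = 3 each), with a difference of 0.95 ± 0.10 (SE, limma, adjusted p = 3.14e-06). This call was lost in limma with all ABCA1 probe sets averaged (0.20, adjusted p = 0.354) and on the arrays with doxycycline (0.18, adjusted p = 0.477). The average gives equal weight to the 2 probe sets with mean signals of 3.65 and 4.57. By the second brightest probe set the untreated signals were 204.5, 239.9 and 298 in Z-138, against 155.8, 146.1 and 110.6 in Maver-1. LRP8 was lower in Z-138, at 284 ± 9.29, than in Maver-1, at 434 ± 23.2 (SD, n = 3 each), with a difference of -0.61 ± 0.10 (SE, limma, adjusted p = 0.000206). By its brightest probe set ABCG1 was lower by little, with 991 ± 45.7 in Z-138 against 1206 ± 39.4 in Maver-1 (SD, n = 3 each), with a difference of -0.28 ± 0.08 (SE, limma, adjusted p = 0.0058). On the arrays with doxycycline, which include the Z-138 NIKsh arrays with low ABCG1, that difference was -1.37. The other ABCG1 probe sets differed in direction between the untreated lines. The second brightest was also lower, at 125.7, 105.1 and 125.8 in Z-138, against 165.7, 227.1 and 195.0 in Maver-1. The third was higher in Z-138, at 149.8, 163.3 and 166.9, against 138.5, 136.4 and 114.0. By the dimmest the lines overlapped, at 101.1, 64.1 and 56.6 in Z-138, against 95.7, 111.8 and 105.7. By the brightest probe set of each, the untreated levels of the 5 genes that passed did not overlap between the lines, as was so for 65.8% of all genes. CETP (0.39 ± 0.23, adjusted p = 0.161) and SCARB1 (0.13 ± 0.18, adjusted p = 0.55, SE, limma) did not pass, and their levels overlapped. For SCARB1 the difference was 0.37 without the Z-138 NTC culture (adjusted p = 0.0325), -0.01 without Z-138 NIKsh#2 and 0.78 with averaged probe sets (adjusted p = 0.00121).

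**Figure D4:**
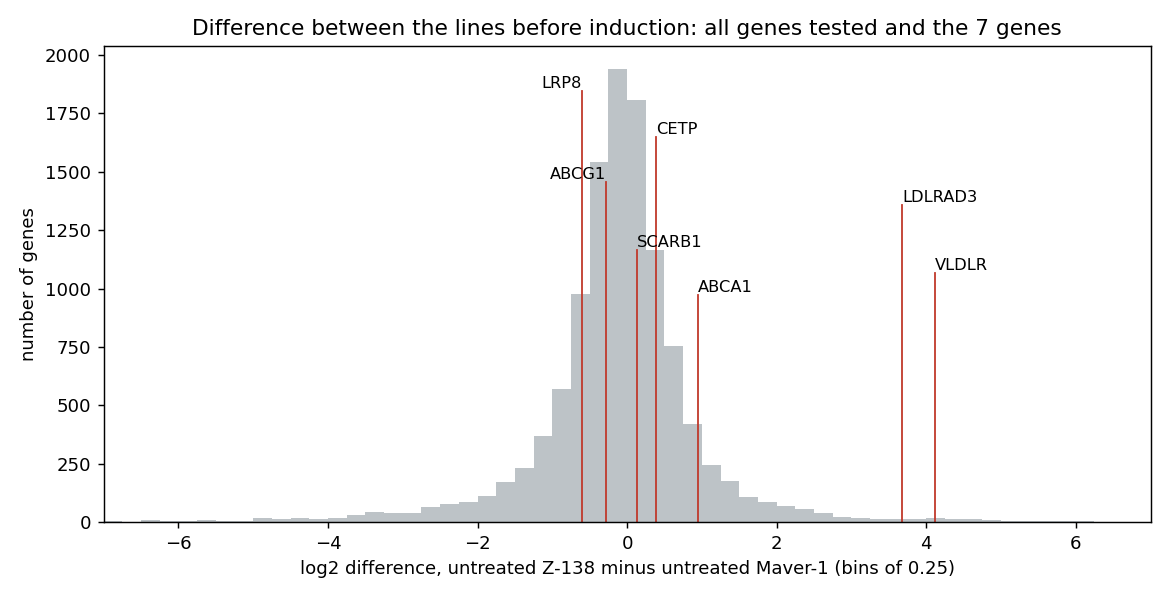
Number of genes by log2 difference of untreated Z-138 minus untreated Maver-1, in bins of 0.25, over the 11548 genes tested, with red lines at the 7 genes. VLDLR at 4.11 and LDLRAD3 at 3.68, the second against a level close to the array medians, lie in the upper tail, and the other 5 genes between -0.61 and 0.95.

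The order of the levels over the conditions differs between the genes. For VLDLR and LDLRAD3 it ran by line first and, within a line, put NIKsh with doxycycline highest. The exception was VLDLR of Maver-1 NIKsh#2 with doxycycline, at 51.7, under the untreated NIKsh#1 array of its line, at 53.9. For CETP the NIKsh arrays with doxycycline came first, Z-138 above Maver-1, and the 8 other arrays, at 25.3 to 55.8, overlapped between the lines. For ABCG1 the 6 Maver-1 arrays and the 4 other Z-138 arrays lay between 835.3 and 1304.2, and the 2 Z-138 NIKsh arrays with doxycycline stood apart below them. For ABCA1 the untreated Z-138 arrays came first, and the Z-138 arrays with doxycycline lay around those of Maver-1. LRP8 separated only the lines, and SCARB1 had no order beyond its spread.

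Other genes of the pathway were taken from 5 lists, which were drawn up with earlier results known. In the NIKsh cultures 0 genes of any of these lists passed in limma, where 0.0433% of all genes did. The LDL receptor family and its partners had 11 genes tested of 24 listed, with a median change of -0.02, against 0.01 over all genes, and 4 positive and 7 negative values. SORL1, a sorting receptor of the family, had -0.82 ± 0.19 (SE, limma, adjusted p = 0.205), with values of -1.69 and -0.28 for the hairpins 1 and 2 in Z-138, -0.69 and -0.63 in Maver-1, and 0.21 and -0.00 in NTC of Z-138 and of Maver-1. LRP11, another family member, had 0.64 ± 0.15 (adjusted p = 0.205), with 0.90, 0.78, 0.61 and 0.26 in the same order, and -0.21 and -0.30 in NTC. Both had one sign in all 4 NIKsh cultures, in opposite directions. As they were named for the smallest p of their list in this comparison, nothing is read from that pattern.

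LXR, its partners and targets had 8 genes tested of 14 listed. Their mean changes were 0 positive and 8 negative, with a median of -0.23, against 0.01 over all genes. Only RXRA and SREBF1 were below 0 in all 4 NIKsh cultures, and each of the others was above 0 in at least 1. The list was drawn up with earlier results known, and nothing is read from the count of signs. In NTC the median of this list was 0.07, with 4 positive and 4 negative values. RXRA, the partner of LXR, read 101.9 and 104.5 with doxycycline under NIKsh#1 and NIKsh#2 in Z-138 and 99.7 and 103.7 in Maver-1, against 141.9, 148.7, 140 and 176.4 without it. In NTC it read 176.7 and 189.1 with doxycycline in Z-138 and Maver-1, against 132.6 and 148.4 without it. The 4 NIKsh arrays with doxycycline were the lowest of the 12. The NTC arrays with doxycycline were the highest, in Z-138 by very little, at 176.7 against 176.4 in untreated Maver-1 NIKsh#2. The mean NIKsh change was -0.55 ± 0.14 (SE, limma, adjusted p = 0.247). As RXRA was named for the smallest p of its list in this comparison, nothing is read from that order of the arrays. SREBF1, an LXR target that drives fatty acid synthesis, had -0.90 ± 0.31 (adjusted p = 0.409), which came from Z-138 NIKsh#1 at -1.75 and Maver-1 NIKsh#2 at -1.67, while the other NIKsh cultures were at -0.04 and -0.15. Genes of lipoprotein uptake and remodelling, 7 tested of 17, had a median of -0.17, with APOC2, an activator of lipoprotein lipase, at -0.48 ± 0.19 (adjusted p = 0.453). For APOC2 the Z-138 NTC value was -0.71, like the Z-138 NIKsh values of -0.70 and -0.74. Genes of sterol efflux and intracellular sterol transport, 16 tested of 21, had a median of 0.04, with ABCA5, another ABCA transporter, at 0.66 ± 0.25 (adjusted p = 0.45). For ABCA5 the Z-138 NIKsh values were 0.93 and 1.30, against 0.61 in Z-138 NTC, and the Maver-1 NIKsh values were -0.11 and 0.50, against -0.03 in Maver-1 NTC. SREBP2 and its targets, the genes of sterol shortage, had 12 tested of 17 and a median of -0.06. Among them DHCR7, of the last step of cholesterol synthesis, had -0.84 ± 0.26 (adjusted p = 0.346). In Z-138 NIKsh#1 its signal was 4.9 with doxycycline, under the array medians, against 27.5 without it, so that the size of this mean is uncertain.

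In the NTC cultures 0 genes of the 5 lists passed either, as 0% of all genes did. Between the untreated lines the LDL receptor family list had 1 gene higher and 5 lower in Z-138 of 11 tested, lipoprotein uptake 2 higher and 1 lower of 7, sterol efflux and transport 2 higher and 9 lower of 16, LXR 2 higher and 0 lower of 8, and SREBP2 4 higher and 6 lower of 12 (limma). Over all genes 25.5% were higher and 34.8% lower, and nothing particular to a list is read from these counts. The medians were -0.13, 0.16, -0.42, 0.05 and -0.28 in that order, against -0.08 over all genes. LRP6, a Wnt co-receptor of the LDL receptor family, was higher in Z-138 by 1.80 ± 0.11 (adjusted p = 1.01e-08), and SORL1 was lower by 1.18 (-1.18 ± 0.09, adjusted p = 2.17e-07). MSR1, a scavenger receptor of macrophages, had untreated signals from 25.6 up to 32.4 in Z-138, and from 0.2 up to 1.7 in Maver-1. The Maver-1 values lie under the array medians and MSR1 passed the filter on mean signal through Z-138, so no fold is given. APOC2 was lower in Z-138 (-2.51 ± 0.14, adjusted p = 7.2e-09), as were DHCR7 (-2.68 ± 0.16, adjusted p = 1.64e-08) and SC5D, another enzyme of late cholesterol synthesis (-1.56 ± 0.13, adjusted p = 3.28e-07; errors are SE of the limma model). GRAMD1C, a sterol transfer protein, had untreated signals from 2.5 up to 4.9 in Z-138, under the array medians, and from 30.4 up to 41.5 in Maver-1, through which it passed the filter, and no fold is given for it either. LIPA, the lysosomal acid lipase that frees cholesterol from lipoproteins, was also lower (-0.93 ± 0.09, limma, adjusted p = 2.09e-06), though not with averaged probe sets (-0.11, adjusted p = 0.545). Of the LXR targets, the fatty acid synthesis genes FASN (0.48 ± 0.17, limma, adjusted p = 0.024) and SCD (0.20 ± 0.07, limma, adjusted p = 0.029) passed as higher, and FASN stood at -0.057 with averaged probe sets. The call of FASN was also lost without Z-138 NIKsh#1, Z-138 NIKsh#2 or Maver-1 NTC (limma, adjusted p between 0.0652 and 0.0827). That of SCD was lost under 9 of the other settings tried, without Z-138 NTC among them (0.15, limma, adjusted p = 0.104).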

How the data were processed

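The authors' values are MAS5 signal, a linear intensity per probe set, per the submitters' processing notes, and were used as deposited. Trimming 2 percent of the probe sets at either end left a mean of 150.02, averaged over the 12 arrays. That average does not show whether each array had been scaled to this level before deposit, and no scaling was added. No detection calls were used. Precision rests on the 12 arrays.

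Of 54675 probe sets, 41091 had 1 symbol in the platform annotation, 1801 had several and 11777 were not named there. Symbols follow RefSeq on GRCh38.p14. Each gene was read by its probe set of highest mean log2(signal + 3). Genes with a mean signal under 12.55 (the median over arrays of their median signal) were not tested, leaving 11548 of 19775. Fits used limma 3.58.1 in R 4.3.3, two-sided, with an intensity trend and Benjamini-Hochberg adjustment over all genes at 0.05, and were tested on simulated data. Figures were made with Python 3.11.15 and matplotlib 3.10.9. The culture entered as a block, which left 4 residual degrees of freedom (2 where the NIKsh change was compared between the lines), since per the labels both arrays of a construct came from cells divided over the 2 media. Deviations of the arrays that share a hairpin from their group means correlated across genes at -0.038 in Z-138, where the values thus did not show the pairing, while for Maver-1 the value was 0.202. The p-values cover the spread between these cultures, which may be technical.

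Members and lists were chosen with earlier results of these data known. The genes named are the 7 members, MAP3K14, up to 2 genes with the smallest p per list in the NIKsh and the untreated comparison, and for each member the 2 genes with the nearest profile. Markers were named after their values were seen. The alternatives tried are given in the closing section.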

Additional observations from a re-analysis of the deposited data

Results flagged for a closer look

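LDLRAD3 differed in direction between the constructs in every culture, higher with doxycycline in the 4 NIKsh cultures and lower in the 2 NTC cultures, a difference of 1.47 between the mean log2 changes. This difference was not tested, because the gene had been chosen for its change in the NIKsh cultures. The share of all genes with such opposite signs was not counted.

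ABCG1 differed between the lines in its NIKsh change, with Z-138 minus Maver-1 at -1.45 on the log2 scale. In the fit over all genes 0.121% of genes passed in this comparison, and as ABCG1 had been chosen for its value in Z-138 no test is read from it. With all 4 probe sets averaged the difference was -1.18.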

How the results depend on the processing

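The number of arrays and the low signal of LDLRAD3 in Maver-1 limit these results. Each fit was repeated with pseudocounts of 1 and 16, other filters, averaged probe sets, quantile normalization, no intensity trend, another block and without each culture in turn. The NIKsh changes had been used to choose the genes and several settings leave them as they were by construction, so their signs say nothing about stability. VLDLR ranged from 0.60 to 0.71, CETP from 0.84 to 1.16 and ABCG1 from -1.17 to -0.58. CETP fell under the filter at the 75th percentile. LDLRAD3 was at 0.62 with pseudocount 16.

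The count of genes called in the NIKsh cultures, 5, was 3 without the filter on signal, 2 with the filter at the 75th percentile, 3 with averaged probe sets, 3 with no intensity trend and 16 with no replicate block. It lay between 0 and 5 in limma with a culture left out. The count of 0 came without NIKsh#1 of Z-138 (523 genes at an unadjusted p under 0.05) or of Maver-1 (1048 genes). It stayed at 0 in NTC and in the difference between NIKsh and NTC. For the untreated lines 6956 genes were called, 6561 with construct as a replicate block (no call of the 7 genes changed), 4194 on the arrays with doxycycline and 6240 to 6790 with a culture left out. For the NIKsh change of Z-138 minus that of Maver-1 the count of 14 was 9 without the filter, 8 with the filter at the 75th percentile, 1 with averaged probe sets, 0 with no intensity trend in limma (941 at an unadjusted p under 0.05) and 9 to 423 with a culture left out. It was 9 without Z-138 NTC, 423 without NIKsh#1 and 84 without NIKsh#2 of Z-138, and 45 without NIKsh#1 and 69 without NIKsh#2 of Maver-1. The cause was not tested.

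The following signs turned, besides those of small differences within the spread between cultures, and apart from FASN none of these values had passed. In NTC, leaving out a culture gave -0.010 to 0.11 for LRP8, -0.17 to 0.10 for CETP, -0.27 to 0.086 for ABCG1 and -0.61 to 0.28 for ABCA1. Quantile normalization put CETP at 0.059 in NTC. Averaged probe sets put ABCG1 at 0.063, ABCA1 at 0.041 and SCARB1 at -0.17 in NTC, SCARB1 at 0.076 in NIKsh minus NTC, LRP8 at 0.14 in the NIKsh change of Z-138 minus Maver-1, and FASN, called higher in untreated Z-138 (0.48), at -0.057. Between the untreated lines SCARB1 lay between -0.011 and 0.37 with a culture left out.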

Other observations

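The genes with the profile nearest to each member were found by the root mean square difference of centred log2(signal + 3) over the 12 arrays, as a description with no test. Nearest to ABCG1, whose own deviation was 0.691 on this measure, were HLA-DQA1, an MHC class II chain, at 0.209 and PKHD1L1 at 0.212. HLA-DQA1 had changes of -1.57 and -0.72 in Z-138 NIKsh#1 and NIKsh#2, -0.35 and -0.25 in Maver-1 NIKsh#1 and NIKsh#2, and -0.10 and 0.13 in Z-138 and Maver-1 NTC. Nearest to LDLRAD3 (own deviation 1.9) was NRXN2, a neurexin, at 0.249. Its changes were 0.55 and 0.64 in Z-138 NIKsh, 1.28 and 0.24 in Maver-1 NIKsh and -1.01 and -0.53 in NTC. As NRXN2 was picked for its likeness to LDLRAD3 on these arrays, nothing is read from its signs. The next was NIPAL2 at 0.32. Its changes were 0.58 and 0.71 in Z-138 NIKsh and 0.71 and 0.57 in Maver-1 NIKsh. In NTC they were 0.04 in Z-138 and -0.22 in Maver-1.

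Nearest to VLDLR (own deviation 2.13, most of it between the lines) were PNMA8A at 0.25 and CECR7 at 0.295. Nearest to CETP (0.605) were the histone gene H3C6 at 0.299 and ZNF862 at 0.303. For LRP8 (0.403) these were CDKL1 at 0.116 and CCSER2 at 0.118, for ABCA1 (0.393) MTX1 at 0.124 and DRG2 at 0.152, and for SCARB1 (0.291) ITFG2 at 0.135 and PPP1R15A at 0.148.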
